A study of Mus musculus with 10 samples.

Results

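The Scd window is a stretch of mouse chromosome 19 from 44.2 to 44.6 Mb (mm8) set to hold the stearoyl-CoA desaturase genes Scd1, Scd2, Scd3 and Scd4. Its members are all rows of 6 deposited lists that overlap this window, 48 of 49015 rows in all. The lists came from chromatin immunoprecipitation followed by sequencing (ChIP-seq) of the 3T3-L1 line, mouse embryonic fibroblasts that turn into fat cells when induced in the dish. Undifferentiated cells (0 h) were profiled for the transcription factor C/EBPβ and for acetylation of histone H3 lysine 9 (H3K9ac), cells at 6 h after induction for C/EBPβ and the glucocorticoid receptor (GR, with a pair of antibodies), and cells at 24 and 240 h for H3K9ac. The labels give a standard differentiation protocol and name no inducing agents. Each list rests on 1 library, so no value below has a replicate error and no test between times was possible.

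The window was selected on measured values, since it holds the 240 h region with the highest average read count, so the counts and levels of 240 h H3K9ac below are a description and support nothing further. The lists give positions on mm8 and no gene names, and gene positions on mm8 were not used here. No peak is therefore assigned to a gene or called exonic, intronic or intergenic. In the RefSeq gene table, made on the later build GRCm38.p6 and used only for order, the 4 genes follow each other as Scd3, Scd2, Scd4 and Scd1. The protein-coding neighbours are Pkd2l1, which encodes a cation channel, before Scd3, and Wnt8b, which encodes a Wnt ligand, after Scd1. Whether the cells at 240 h were adipocytes could not be checked against marker genes, because the lists carry no expression values.

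Stearoyl-CoA desaturases are enzymes of the endoplasmic reticulum that place a double bond in saturated fatty acyl-CoA and so make oleate and palmitoleate, the main monounsaturated fatty acids of triglycerides. Scd1 is the principal form of adipose tissue and liver and a widely used marker of adipocyte differentiation, and Scd2 is prominent in brain. Scd3 is known from skin and Harderian gland, and Scd4 from heart. C/EBPβ is a leucine zipper protein that is among the first regulators of adipogenesis, GR is the nuclear receptor for glucocorticoids, and H3K9ac is a histone mark of active promoters and enhancers.

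The 4 genes were looked up in the RefSeq promoter table, and Scd3 and Scd4 matched. The 250 bases before their starts are shown because the H3K9ac lists leave out transcription start sites, so the lists say nothing about H3K9ac there. They are RefSeq sequences from GRCm38.p6, both on the plus strand, and their coordinates cannot be set beside the mm8 positions of the lists. Scd3 lies after chr19:44203038-44203287 and Scd4 after chr19:44333076-44333325, which are the stretches printed. Capitals mark matches, on either strand, to 6 motifs.
Scd3: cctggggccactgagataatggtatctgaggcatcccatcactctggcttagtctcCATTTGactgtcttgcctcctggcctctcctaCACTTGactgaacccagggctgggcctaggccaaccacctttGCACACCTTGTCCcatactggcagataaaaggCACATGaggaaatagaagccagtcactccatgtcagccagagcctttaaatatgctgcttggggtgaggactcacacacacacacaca
Scd4: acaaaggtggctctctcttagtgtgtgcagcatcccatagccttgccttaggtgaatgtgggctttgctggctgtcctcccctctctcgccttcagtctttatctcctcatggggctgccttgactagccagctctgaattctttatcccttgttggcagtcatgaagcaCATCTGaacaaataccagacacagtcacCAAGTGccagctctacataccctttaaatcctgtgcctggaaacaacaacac

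The longest run of capitals in the Scd3 sequence matches the form of a glucocorticoid response element (GNACA, any 3 bases, then TGTNC), which 0.387% of 32851 RefSeq promoter stretches of this length hold. The other capitals match the E-box CANNTG, with 3 matches before Scd3 and 2 before Scd4, and 66.2% of the stretches hold at least 1. Neither sequence had a match to TTGCNNAA (C/EBP, in 9.56% of stretches), CCAAT (NF-Y, 33.8%), TCACNCCAC (sterol response element, 1.05%) or AGGTCA repeated after 1 base (a form bound by PPAR with RXR, 0.0335%). A match is a description of letters and not a bound site.

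The window held 5 C/EBPβ peaks at 0 h, 12 at 6 h, 7 GR peaks at 6 h, and 24 H3K9ac regions at 240 h. It held no listed H3K9ac region at 0 h or 24 h. Each factor peak carries the authors' peak height, the size of its pile of reads, and a fold enrichment over their background. Each H3K9ac region carries their average read count and a false discovery rate (FDR). The counts of rows were set against 6562 windows of 400 kb that tile the genome. Most of those windows hold few rows, with means of 1.58 C/EBPβ peaks at 0 h, 3.16 at 6 h, 0.611 GR peaks and 1.2 regions at 240 h. At least as many C/EBPβ peaks were found in 11.2% of windows at 0 h and in 5.93% at 6 h. At least 7 GR peaks were found in 0.701% of windows, and at least 24 H3K9ac regions at 240 h in 0.0914%, which is 6 windows. Only 3 of the 7 GR peaks ranked in the stronger part of their list, and on stronger rows alone 97.3% of windows held fewer GR peaks and 96.4% fewer C/EBPβ 6 h peaks than this one.

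**Figure D1:**
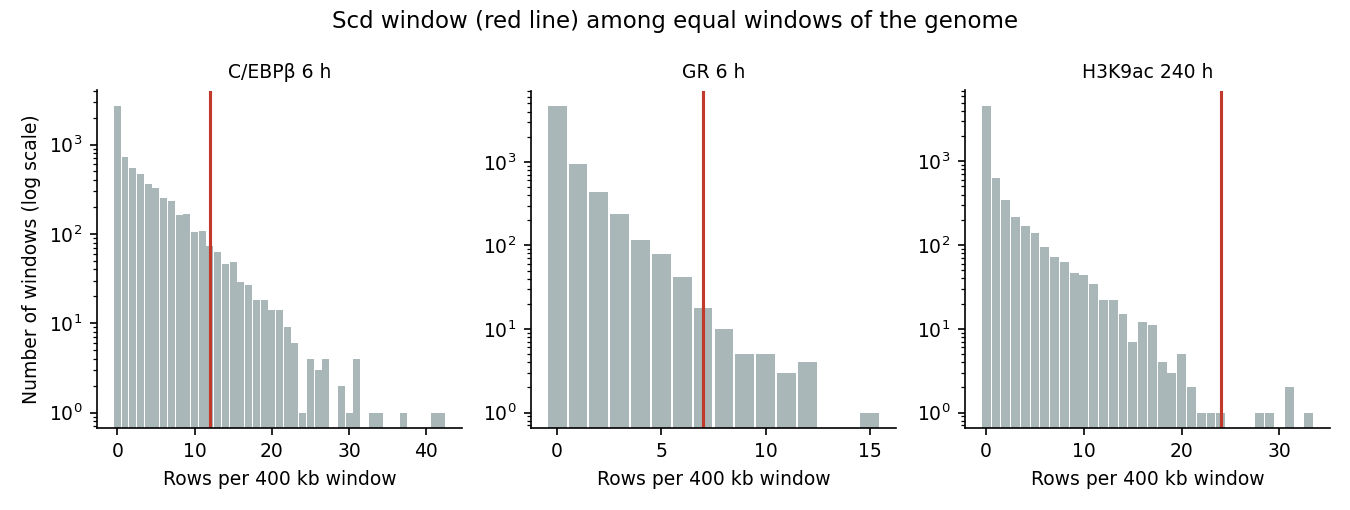
Number of 400 kb windows of the genome (vertical axis, log scale) by the rows they hold (horizontal axis) for C/EBPβ at 6 h, GR at 6 h and H3K9ac at 240 h, with the Scd window as a red line. The Scd window stands at 12, 7 and 24 rows, against maxima of 42, 15 and 33.

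The lack of regions at 0 h and 24 h is common and says little alone, since 73.7% of windows held no 0 h region and 86.1% no 24 h region. The nearest 0 h regions lay 490.0 kb before and 476 kb after the window, and the nearest 24 h regions 215 kb before and 893 kb after it. Each H3K9ac list holds only regions called at 1 time relative to another and outside start sites, per the labels. A region missing from the 0 h or 24 h list is therefore not shown to lack H3K9ac, and the 240 h regions are those the authors called as holding more of the mark than at an earlier time.

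**Figure D2:**
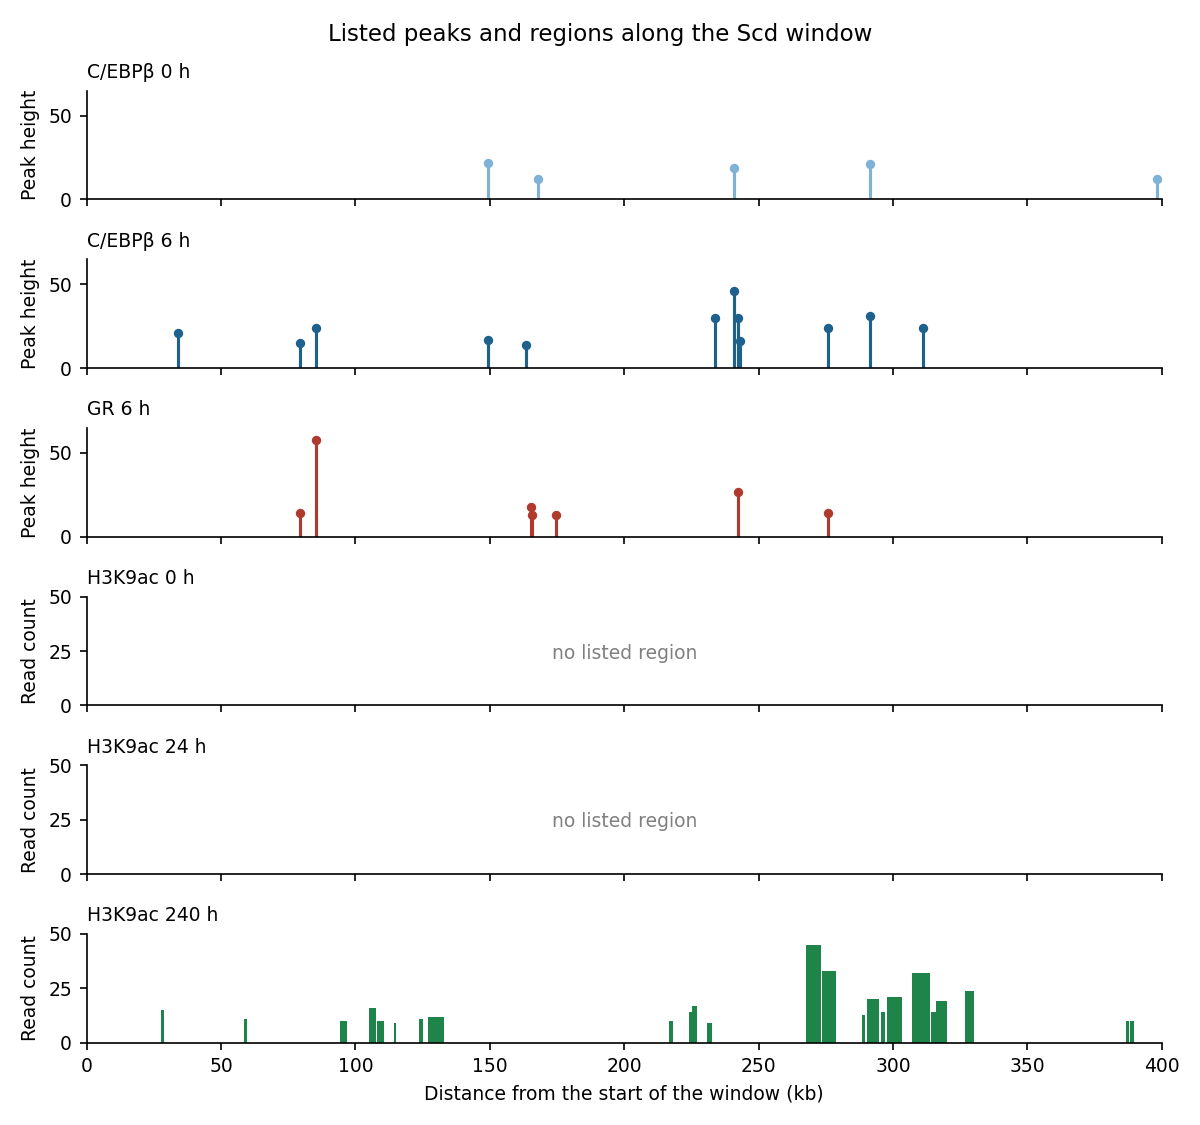
Rows of the 6 lists along the Scd window, with distance from its start in kb on the horizontal axis, the authors' peak height for C/EBPβ and GR, and the authors' average read count for H3K9ac (bar width is region width). The densest run of 10 H3K9ac bars, which includes the bar with a read count of 45, holds 1 C/EBPβ peak of 0 h, 3 of 6 h and 1 GR peak.

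Acetylated regions at 240 h covered 66350 bp, or 16.6% of the window, and only 6 of the 6562 windows had a longer covered length. When regions separated by at most 20 kb were joined, a distance chosen after the lists had been seen, the 24 regions formed 6 groups. The largest ran from 44467550 to 44530200 and held 10 regions that covered 39250 of its 62650 bp, which was 59.2% of the acetylated length of the window. Over the genome 1.18% of 3982 such groups held 10 or more regions, and this one ranked 15 by covered length. Its mean read count, weighted by length, was 27.1, against 10.0 to 15.0 in the other 5 groups.

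The region from 44467550 to 44473250 opened this group and had an average read count of 45, the highest of all 7845 regions listed at 240 h, where the next highest was 38. The adjoining region from 44473500 to 44478650 had a read count of 33, a level reached by 8 regions of the list. Another strong region, from 44506950 to 44513800, had a read count of 32, reached by 11 regions, and was the widest of the window at 6850 bp. Next came the regions from 44526750 to 44530200, which closed the group with a read count of 24, and from 44497850 to 44503300 with a read count of 21. The window thus held 3 of the 15 regions of the genome with a read count of at least 30, a level reached by 0.191% of the list. It held 6 of the 189 regions with at least 20, a level reached by 2.41%, and all 6 lay in this group.

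The 14 regions outside this group had read counts of 9 to 17. A lone region from 44227700 to 44228950 had a read count of 15 and another from 44258550 to 44259700 a read count of 11. A group of 6 followed between 44294350 and 44332850, with read counts of 9 to 16 and 15900 bp covered. It ended in a broad region from 44327050 to 44332850 of 5800 bp but with a read count of only 12. After 83750 bp with no listed region, a group of 4 lay between 44416600 and 44432700, with read counts of 9 to 17 and 6000 bp covered. The last group held a pair of regions between 44586750 and 44589800, both with a read count of 10. The authors gave 15 of the 24 regions (62.5%) an FDR of 0, of which 9 were among the 10 of the largest group, against 45.3% over the whole list.

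**Figure D3:**
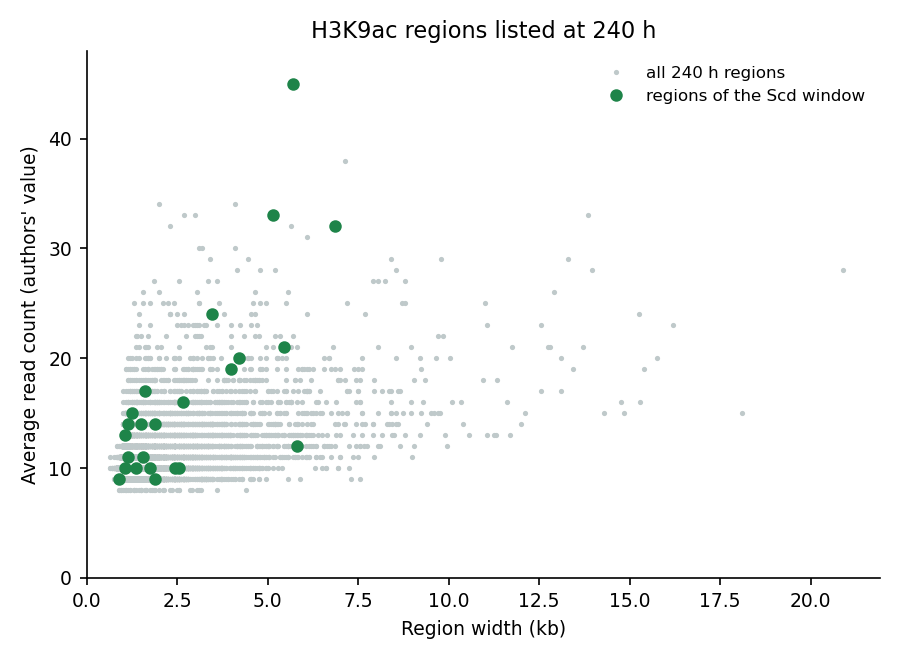
Width in kb (horizontal axis) and the authors' average read count (vertical axis) of all 7845 H3K9ac regions listed at 240 h (grey) and of the 24 in the Scd window (green). The region with a read count of 45 stands above all others, and the window's lower regions lie within the body of the list.

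The 5 C/EBPβ peaks of undifferentiated cells were of middling to low height. The highest, from 44349186 to 44349399, had a height of 22 (12.4-fold enrichment), and 62.3% of the list was lower. The peak from 44491404 to 44491635 had a height of 21 and that from 44440577 to 44440916 a height of 19. The peaks from 44367618 to 44367886 and from 44598146 to 44598333 had a height of 12, the lowest value the list holds. The median of the whole list was 18, so 3 of the 5 stood above it and 2 at its floor.

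At 6 h, 3 of the 12 C/EBPβ peaks (25%, 95% Wilson interval 8.89 to 53.2%) overlapped a 0 h peak, against 35.7% over the list. In the other direction, 3 of the 5 peaks of 0 h had a 6 h counterpart (60.0%, 23.1 to 88.2%), against 71.3%. The share of the whole list lay inside both intervals. The peaks listed again were the 3 highest of 0 h, and those not listed again were the pair at a height of 12. Peaks were taken to overlap from 1 bp on. Intervals cover counting error only and treat neighbouring peaks as independent.

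The 3 shared sites had another order of height in each list. The site at 44440518 to 44441112 reached a height of 46 (14.27-fold enrichment) at 6 h, the highest C/EBPβ values of the window, against a height of 19 at 0 h. The site at 44491327 to 44491637 had a height of 31 at 6 h, against 21 at 0 h. The site at 44349209 to 44349430 had a height of 17 at 6 h, against 22 at 0 h. Heights were not scaled between libraries, read totals are unknown, and the lists differ in length (10359 and 20746 peaks), so neither heights nor ranks show a change of binding between the times. Within the 6 h list these 3 sites stood above 94.9%, 82.9% and 43.3% of peaks.

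Of the 9 C/EBPβ peaks not listed at 0 h, 3 lay near the highest one. These were the peaks at 44433317 to 44433934 (height 30), at 44442167 to 44442673 (height 30) and at 44442904 to 44443245 (height 16). With the shared site they placed 4 peaks between 44433317 and 44443245, just after the acetylated group that ended at 44432700. Another pair lay in the largest acetylated group, at 44475597 to 44475830 and at 44510981 to 44511216, each with a height of 24. Near the start of the window were the peaks at 44233878 to 44234094 (height 21), 44279141 to 44279662 (height 15) and 44284784 to 44285668 (height 24). The lowest, at 44363333 to 44363603, had a height of 14. The median height of the 12 peaks was 24, against 18 over the list.

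GR peaks were numerous but mostly low, with a median height of 14 against 16 over the list. One stood out, from 44284779 to 44285782, with a height of 58 (16.51-fold enrichment). Its height was reached by 117 of 4007 GR peaks, and its width of 1003 bp by only 24 of them. This GR peak overlapped the C/EBPβ peak of height 24 at 44284784 to 44285668, a site not listed at 0 h. The peak from 44442197 to 44442827 had a GR height of 27, above 80.0% of the list, and overlapped a C/EBPβ peak of height 30. The other 5 GR peaks had heights of 13 to 18.

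A C/EBPβ peak of 6 h met 4 of the 7 GR peaks (57.1%, 25 to 84.2%), against 66.6% over the list. The remaining pair of shared sites lay from 44279196 to 44279618 and from 44475512 to 44475809, both with a GR height of 14, with C/EBPβ heights of 15 and 24. No C/EBPβ peak of 0 h met any of the 7 (an interval of 0 to 35.4%), against 26.2%. Turned round, 4 of 12 C/EBPβ peaks at 6 h (33.3%, 13.8 to 60.9%) overlapped GR, against 13.0% over the list. The window was chosen with these lists known, and its 7 GR peaks are many for its length, so this last share is a description only. None of these 4 was listed at 0 h, but neither were most 6 h peaks, since only 25.0% in the window and 35.7% over the list were. The share among all C/EBPβ peaks that overlap GR was not computed.

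The 3 GR peaks without C/EBPβ lay together, from 44365043 to 44365673 (height 18), 44365687 to 44365937 (height 13) and 44374650 to 44374854 (height 13). All lay in the stretch of 83750 bp that had no listed H3K9ac region at any time. A low C/EBPβ peak of 6 h stood 1440 bp from the nearest of them, and the 0 h peak of height 12 at 44367618 stood 1681 bp from another.

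Most factor peaks of the window lay outside the spans of the acetylated groups, as most do over the genome. These were 9 of the 12 C/EBPβ peaks at 6 h (75%, 46.8 to 91.1%), against 94.1% over the list. They were 6 of the 7 GR peaks (85.7%, 48.7 to 97.4%), against 94.7%. At 0 h they were 4 of the 5 C/EBPβ peaks (80.0%, 37.6 to 96.4%), against 93.1%. The share of the whole list lay above the interval for C/EBPβ at 6 h and inside the others. The window is rich in such groups, and whether this lowers the shares outside was not tested. Within 1 kb of a C/EBPβ 6 h peak were 4 of the 24 regions (16.7%, 6.68 to 35.9%), against 12.6% over the 240 h list. Within 1 kb of a C/EBPβ 0 h peak was 1 region (4.17%, 0.739 to 20.2%), against 7.84%, and within 1 kb of a GR peak 1 region, also 4.17%, against 2.31%. The share of the whole list lay inside all 3 of these 1 kb intervals, so no difference from 240 h regions elsewhere was detectable at 1 kb with 24 regions. Within 10 kb of a C/EBPβ 6 h peak were 14 of the 24 (58.3%, 38.8 to 75.5%), against 35.2% of the list. The same distance took in 6 regions near C/EBPβ 0 h peaks, against 25.6% of the list, and 4 near GR peaks (16.7%, 6.68 to 35.9%), against 8.46%. Many of the 24 lie close together and share their nearest peaks, so these intervals are too narrow. The window also held 12 C/EBPβ 6 h peaks against a mean of 3.16 per window, so its 10 kb share is a description only.

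Of the 4 regions near C/EBPβ, 3 were in the largest group. The region with a read count of 33 held the C/EBPβ peak at 44475597 and the GR peak at 44475512. The region with a read count of 32 held the C/EBPβ peak at 44510981, and the region from 44490500 to 44494700, with a read count of 20, held the C/EBPβ site listed at 0 h and 6 h. The other, from 44430800 to 44432700 with a read count of 9, lay 617 bp from a C/EBPβ peak. The strongest region, with a read count of 45, held no listed factor peak. Its nearest were the GR peak at a gap of 2262 bp and the C/EBPβ 6 h peak at 2347 bp, both those of the adjoining region. The highest GR peak lay 8568 bp from the nearest 240 h region, and the highest C/EBPβ peak 7818 bp.

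Seen from the factors, 4 of 12 C/EBPβ peaks at 6 h lay within 1 kb of a 240 h region. This share was 33.3% (13.8 to 60.9%), against 4.98% over the list. So did 1 of 5 C/EBPβ peaks at 0 h (against 5.83%) and 1 of 7 GR peaks (14.3%, against 4.44%). The window was chosen with its late H3K9ac known and is rich in 240 h regions. Whether this raises the shares was not tested, so they are a description only.

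The combination of many early GR peaks with many late acetylated regions was then compared across windows. Windows with at least 7 GR peaks and 12 C/EBPβ 6 h peaks numbered 42 (0.64%), and none of them overlapped the Scd window. They held a median of 1 region at 240 h and at most 21, so none reached the 24 of the Scd window. A tile border cuts the Scd window at 44400000, so it was compared whole with tiles that can cut other loci. The cutoffs of 7 and 12 were its own counts. A 24 h region was present in 29 of the 42 (69.0%), against 13.9% of all windows. A 0 h region was present in 24 (57.1%), against 26.3%. Of the 42, 7 had neither, as the Scd window had neither. The share of all windows with neither was not computed, but 73.7% had no 0 h region and 86.1% no 24 h region. Most windows therefore had neither, so this lack is not a trait particular to windows rich in factor peaks. Since the Scd window was selected with its 240 h H3K9ac known, this is a description and not a test. From the other side, the 6 windows with at least 24 regions at 240 h held 0 to 3 GR peaks and 2 to 14 C/EBPβ 6 h peaks. None of the 6 had a 24 h region, and 3 had no 0 h region, where 86.1% and 73.7% of all windows had none. With tiles shifted by 200 kb and the window's own tile left out, 44 windows had as many of both factors and at most 11 regions at 240 h.

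**Figure D4:**
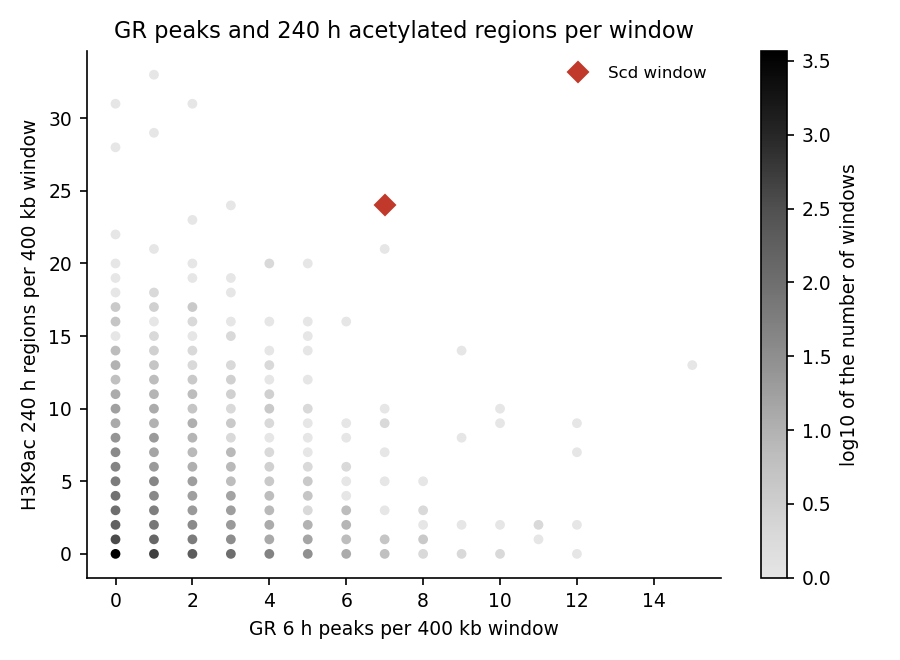
GR peaks at 6 h (horizontal axis) and H3K9ac regions at 240 h (vertical axis) per 400 kb window, shaded by the log10 number of windows at each point, with the Scd window as a red diamond at 7 and 24. No other window with 7 or more GR peaks had more than 21 regions.

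The rows closest to the edges differed between the sides of the window. The last row inside was the C/EBPβ 0 h peak ending at 44598333, and the next row of any list began at 44976616, a gap of 378 kb. Before the window, the nearest row was a C/EBPβ 6 h peak ending at 44156875, with a height of 16, at only 43.1 kb. The nearest 240 h region on that side lay 104 kb before the window. A C/EBPβ 0 h peak with a height of 115 lay 125 kb before the window, at 44074934 to 44075264, and was higher than any C/EBPβ 0 h peak inside. The nearest GR peak outside had a height of 67 and lay 231 kb before it.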

How the data were processed

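Per the labels' protocols, reads of 36 bp were aligned by ELAND to mm8, allowing 2 mismatches. Reads with a single placement were used, 1 per start coordinate, which leaves repeats uncovered and caps tall peaks. How peaks were called, and against which input, is not given in the sources used here. The deposited C/EBPβ and GR lists give each peak's fold enrichment, a ratio over a background not described, and its height, a whole-number read signal of at least 12. The deposited H3K9ac lists give an FDR (a q-value, of which the lowest is printed as 0) and each region's average read count, also a signal. These values came from the authors and were compared within 1 list at a time. Read totals are not given, so depth is unknown.

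Rows overlapping the window were taken from each list and counted with Python 3.11.15, numpy 2.4.6, pandas 2.3.3 and matplotlib 3.10.9. Equal windows tiled each chromosome up to its highest listed coordinate. Peaks were shared at an overlap of 1 bp or more, and near at a gap under 1 kb. The overlap and tiling code was tested on simulated lists. The 4 input libraries were not used, and none of the 6 deposited regions of input bias lies on chromosome 19. Named rows are the 5 strongest of each list in the window (by height or read count), rows that overlap another list, and the first and last of each group. The remaining few factor peaks were named after their values were seen. The window, its members and the lists were chosen with earlier results of these data known.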

Additional observations from a re-analysis of the deposited data

How the results depend on the processing

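Each list is 1 library of unknown depth, so absence of a row does not show absence of binding or mark. No paired analysis was possible because each group is 1 library. Of 59 values recomputed under other settings, 36 stayed within their interval or within 1.5 times the main count and 23 moved. Counting rows by their centre changed no count. With the stronger rows of each list alone, the window held 3 C/EBPβ 0 h and 3 GR peaks, and the share of windows with fewer rows was 96.4% for C/EBPβ 6 h and 97.3% for GR. Windows with no row were then 82.8% for H3K9ac 0 h and 91.8% for 24 h.

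With windows of 200 kb, fewer rows were found in 94.1% of windows for C/EBPβ 0 h and 95.8% for 6 h, and no row in 83.7% for H3K9ac 0 h and 92.0% for 24 h. With windows of 800 kb, fewer rows were found in 77.9% for C/EBPβ 0 h, 85.1% for 6 h, 97.2% for GR and 99.5% for H3K9ac 240 h, and no row in 59.3% for H3K9ac 0 h and 75.7% for 24 h. Among windows holding a row of any list, fewer were found in 82.3% for C/EBPβ 0 h, 90.7% for 6 h and 98.9% for GR, and no row in 58.7% and 78.1% for H3K9ac 0 h and 24 h. These settings change the number of rows or windows by construction, and no other cause was tested.

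Within 10 kb, by construction more than within 1 kb, 25% of the 240 h regions were near C/EBPβ 0 h peaks, 58.3% near C/EBPβ 6 h and 16.7% near GR peaks, against 25.6%, 35.2% and 8.46% over the list. The window holds more factor peaks than most windows, so these shares are descriptions only. Tiles on the window, left out after the data had been examined, moved no share of windows. Regions joined over at most 10 kb and 50 kb, also chosen then, gave largest groups of 10 and 14 regions, which ranked 6 and 23 by covered length.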
